A study of Mus musculus with 6 samples.

Results

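The transcripts of 88 mouse genes that encode Golgi glycosyltransferases, the mannosidases that trim N-glycans and the chaperone of core 1 synthase were followed in CD4+ T cells. The genes were chosen by symbol, as the Gcnt, C1galt1, Galnt, Mgat, Man1, Man2a, B3gnt, B3galt, B4galt, St3gal, St6gal, St6galnac, St8sia and Fut families, and each is represented by 1 transcript cluster, the one with the highest mean where a gene had more. They are 88 genes among 23410 tested transcript clusters of an Affymetrix Mouse Gene ST array that probes whole transcripts. B4galt2 shared its cluster with another gene and is not reported.

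The females were 8 weeks old, unimmunized and taken from mixed sex litters. In one group they were wild-type C57BL/6J (B6). In the other they came from B6-ChrYSJL, a consomic strain in which the males carry the Y chromosome of SJL on the C57BL/6J background. The daughters themselves carry no ChrY, so the groups were defined by their fathers' ChrY. Anything else that differed between the strains as they were kept cannot be told apart from it. Cells positive for CD4 and TCRβ were sorted from axillary, brachial and inguinal lymph nodes, and each group had 3 pools of 5 mice with 1 array per pool. The arrays asked whether CD4+ T cells of daughters differ with the ChrY of the father. A pool averages its mice and all the CD4+ T cells sorted from them, so fewer cells that express a gene and less RNA per cell cannot be told apart. The CD4 T cell markers measured, Cd3d, Cd3e, Cd3g, Cd4, Cd5 and Cd28, had a mean log2 value of 11.76 to 11.79 in the B6 pools and 11.75 to 11.79 in the B6-ChrYSJL pools, far over the upper quartile of the arrays of 8.13 to 8.19.

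Glycosyltransferases sit in the Golgi membrane and add sugars one at a time to proteins and lipids on their way to the cell surface. O-glycans start with GalNAc on serine or threonine, are turned into core 1 by a galactose and into the branched core 2 by Gcnt1, and the branch can be finished with sialic acid and fucose to give the sialyl Lewis x structure by which activated T cells bind P- and E-selectin on inflamed vessels. N-glycans are first trimmed by mannosidases and then branched by the Mgat enzymes, and in T cells the extent of this branching is known to set how galectins hold surface receptors together.

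Most of these transcripts lay close together in the strains. Gcnt1 was the 1 gene of 88 that passed an FDR of 0.1 in limma, lower in B6-ChrYSJL, and none passed an FDR of 0.05. Among all tested transcripts 0.0726% passed an FDR of 0.1, 0.0598% did so in the lower direction and 0.0128% in the higher. At an unadjusted p under 0.05 there were 7 of the 88, or 7.95%, 4 higher and 3 lower in B6-ChrYSJL, against 10.6% of all tested transcripts (4.69% higher and 5.92% lower). The groups did not overlap for 7 genes, again 7.95%, 3 of them higher (C1galt1, Fut2 and St8sia3) and 4 lower (Gcnt1, Man2a1, Galnt13 and St3gal5). Among all tested transcripts 17.1% did not overlap, 7.68% higher and 9.42% lower. A difference over 0.25 in size was seen for 8 of the 88, or 9.09%, and for 5.43% of all tested. The shares of the glycosylation genes rest on few genes, and their distance from the shares of all tested transcripts was not tested. Among detected genes, 2 of the 56 above background differed by over 0.25 (3.57%), against 4.65% of all tested transcripts above background. Of the 32 genes not above it 6 differed by over 0.25 (18.8%), beside 5.43% of all tested transcripts, detected or not. The median difference over the 88 was 0.01 on the log2 scale and −0.00 over all tested transcripts, and the median absolute difference was 0.06 against 0.08. The 95% interval of the difference lay within 0.5 of 0 for 78 of the 88 genes, or 88.6%, where 94.2% of all tested transcripts had such an interval. The exceptions were Gcnt1 and 9 other genes, namely B3galt5, B3gnt4, B3gnt6, B3gnt8, Gcnt3, Fut2, Fut4, St3gal5 and St6galnac1.

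**Figure D1:**
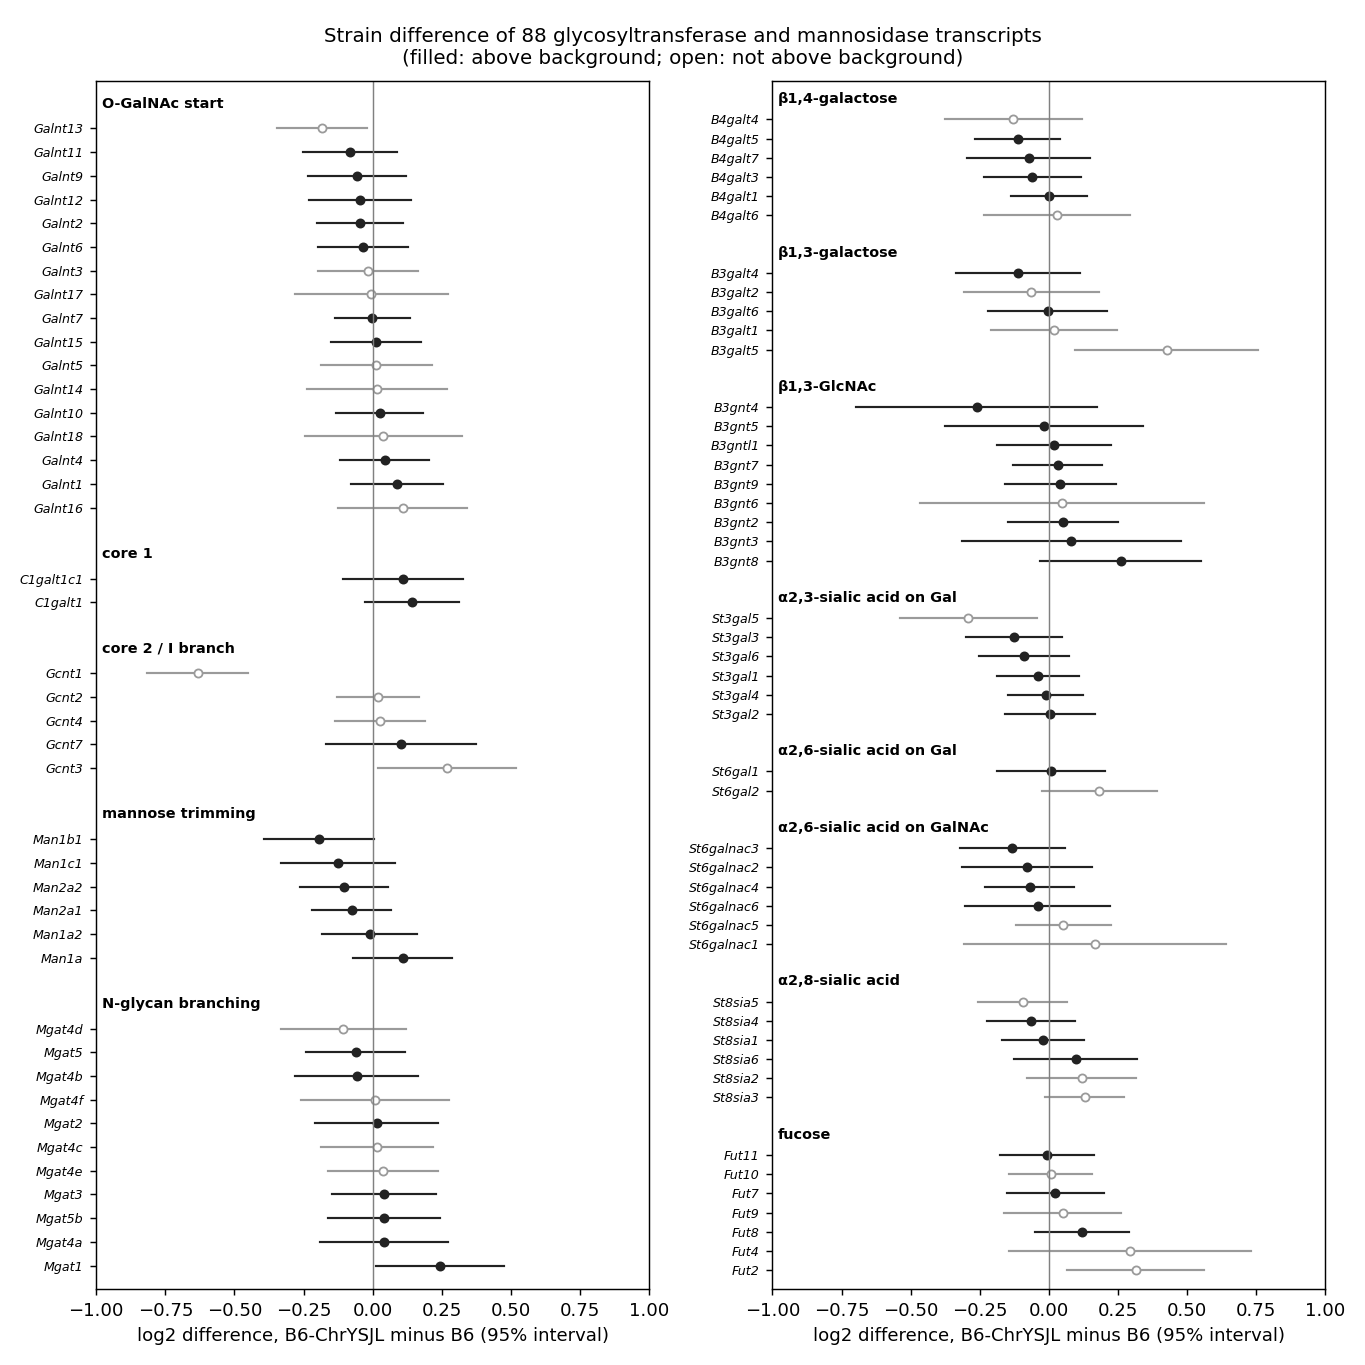
Log2 difference of each of the 88 genes, B6-ChrYSJL minus B6 (horizontal), with its 95% interval from limma (3 pools against 3), grouped by the step of glycan synthesis. Filled points are genes above the background level and open points are not above it. Gcnt1 at −0.63 lies apart from the other 87, which lie between −0.29 and 0.43.

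Of the 88 genes, 56 had a mean over the arrays above a background of 5.98. This level is the value under which 95% of 1210 transcripts of olfactory and vomeronasal receptors, genes of sensory neurons, had their means. The detected share was 63.6%, against 61.6% of all tested transcripts. Probe sets differ in how strongly they respond, so a gene above the level is taken as detected and no difference in level between genes was read from the values. All 6 mannosidases that trim N-glycans and both core 1 genes were above it, as were 8 of 9 β1,3-GlcNAc transferases, but 1 of 5 Gcnt genes, 3 of 7 fucosyltransferases and 3 of 6 St8sia genes.

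Gcnt1, which adds the β1,6-linked GlcNAc that turns core 1 into core 2, was lower in every B6-ChrYSJL pool than in any B6 pool. Its log2 values were 5.93, 5.98 and 5.84 in the B6 pools and 5.27, 5.18 and 5.41 in the B6-ChrYSJL pools. The means were 5.92 ± 0.07 (SD, n = 3 pools) and 5.28 ± 0.12, and the nearest pools of the groups were 0.44 apart. The difference was −0.63 (standard error 0.08, 95% interval −0.82 to −0.45, adjusted p = 0.0707 in limma), which is a signal 1.55 times as high in B6. It ranked at 10 of the 23410 transcripts by p, and 0.167% of them differed by as much or more in either direction.

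The Gcnt1 signal was low. Both group means lay under the background level, that of B6 above 94% of the receptor transcripts and that of B6-ChrYSJL above 82.6%, so the size of the difference is uncertain. Of the 1210 receptor transcripts, 1 differed by as much as Gcnt1, where 0.167% of all tested transcripts did. None of them passed an FDR of 0.1 in limma, against 0.0726% of all tested. At an unadjusted p under 0.05 there were 112 receptor transcripts, or 9.26%, near the 10.6% of all tested. The call was lost when any 1 array was left out. The adjusted p rose to between 0.11 (without B6-ChrYSJL replicate 3) and 0.301 (without B6-ChrYSJL replicate 1) and the difference stayed between −0.70 and −0.58. It was also lost with an unmoderated linear model (adjusted p = 0.266), when limma was run over all deposited clusters (adjusted p = 0.323) and with the replicate number as a block (adjusted p = 0.209).

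Transcripts of antigen-experienced and regulatory T cells moved in the same direction as Gcnt1 in these pools. The lists were chosen with earlier results of these data known, so their counts describe the lists and test nothing. Of 19 activated or memory genes, 15 were lower at an unadjusted p under 0.05 (background 5.92% in that direction) and none was higher, with a median difference of −0.34, and the mean log2 value of the list was 8.33 to 8.43 in the B6 pools and 7.92 to 8.03 in the B6-ChrYSJL pools. Of 12 regulatory T cell genes, 9 were lower and none higher, with a median of −0.28 and list means of 8.90 to 9.08 and 8.62 to 8.71. In these lists Itgae, on both, and Ccr2 passed an FDR of 0.1 in limma (adjusted p = 0.0218 and 0.0707). Both calls were lost with the unmoderated model and over all deposited clusters. Ccr2 had a mean of 6.46 in B6 and of 5.62 in B6-ChrYSJL, the latter under the background level, so the size of its difference is uncertain. With 1 array left out the adjusted p of Ccr2 was 0.103 to 0.301, so the call was lost each time, and that of Itgae was 0.0282 to 0.177, lost in all but the fits without B6 replicate 1 or 3. The call of Ccr2 was also lost with the replicate block (adjusted p = 0.103). The list means of the 11 CD8 and cytotoxic markers (7 above background) overlapped, at 6.92 to 6.98 in B6 and 6.74 to 6.98 in B6-ChrYSJL. Of the 11 markers, 9 had a lower mean in B6-ChrYSJL, with a median difference of −0.14. Cd8a, Cd8b1 and Gzmb (not above background) were lower at that p. These 3 (27.3%) also did not overlap between the groups, where 9.42% of all tested transcripts were lower without overlap. The 15 B cell markers (9 above background) had list means of 6.26 to 6.36 in B6. In B6-ChrYSJL the list means were uneven, at 6.20, 6.61 and 6.70 in replicates 1, 2 and 3. Of the 15 markers, 13 had a higher mean in B6-ChrYSJL and 2 a lower one, with a median difference of 0.20. At that p 3 of them, H2-Ab1, H2-Eb1 and Ebf1 (not above background), were higher and 1, Cd72, lower. Among all tested transcripts 4.69% were higher at that p and 5.92% lower. Within the 13 stromal markers (7 above background), which include Glycam1 and Madcam1 of high endothelial venules, 3 were higher at that p (Col1a2, Col3a1 and Pdpn) and the list means were 6.27 to 6.34 and 6.31 to 6.44. Of the 10 myeloid and erythroid markers, 3 were above background and 1, Itgax (not above background), was higher at that p, with list means of 5.56 to 5.76 and 5.67 to 5.69. The part of any of these cells in the Gcnt1 value was not tested.

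Because Gcnt1 alone passed the threshold, the 250 bases before each of its 3 annotated start sites on chromosome 19 are shown (RefSeq, GRCm38.p6, minus strand). The array has 1 transcript cluster for the gene and does not separate the starts. Capitals mark matches to the TATA box, TATAAA on either strand.
Gcnt1 start 1, chr19:17372845-17373094: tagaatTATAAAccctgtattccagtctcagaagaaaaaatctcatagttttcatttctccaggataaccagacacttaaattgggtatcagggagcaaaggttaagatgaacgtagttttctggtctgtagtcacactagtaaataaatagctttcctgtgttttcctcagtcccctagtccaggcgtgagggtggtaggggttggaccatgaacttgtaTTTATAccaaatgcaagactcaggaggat
Gcnt1 start 2, chr19:17356668-17356917: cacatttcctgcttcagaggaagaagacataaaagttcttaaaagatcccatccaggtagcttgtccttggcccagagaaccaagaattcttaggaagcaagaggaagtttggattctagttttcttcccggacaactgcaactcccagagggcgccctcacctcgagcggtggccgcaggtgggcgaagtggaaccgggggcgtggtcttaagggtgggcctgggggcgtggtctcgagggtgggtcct
Gcnt1 start 3, chr19:17339506-17339755: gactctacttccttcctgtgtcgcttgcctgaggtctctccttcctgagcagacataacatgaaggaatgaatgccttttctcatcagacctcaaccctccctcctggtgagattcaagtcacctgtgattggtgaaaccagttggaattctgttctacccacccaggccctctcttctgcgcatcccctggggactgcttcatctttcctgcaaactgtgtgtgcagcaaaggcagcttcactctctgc
The first window held a pair of TATA matches, their first bases 244 and 29 bases before the start. The match at 244 reads TATAAA as printed. The match at 29 reads TTTATA, so TATAAA lies on the opposite strand there. The other windows held none, where 12.4% of 32841 mouse promoter windows of this length have at least 1 on either strand. None of the 3 windows held the GC box GGGCGG, which 32.7% of all windows hold, the T-box element GGTGTGA (3.33%), the E-box CACGTG (6.02%) or the ETS element CCGGAAG (6.91%), each searched on both strands. Their GC contents were 40.4%, 55.6% and 51.6%, with 2, 10 and 2 CpG dinucleotides. Promoter windows were found for 64 of the 88 genes. These 90 windows had a median GC content of 59.6% and a median of 14 CpG, against 52.4% and 6 over all windows, so all 3 Gcnt1 windows lay under the median of the glycosylation genes on either measure. Of the 90 windows 46 held a GC box, or 51.1%, and 2 a TATA match, or 2.22%.

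The other Gcnt genes did not share the Gcnt1 pattern. Gcnt2, which makes the branched I antigen, had log2 values of 5.42, 5.48 and 5.55 in B6 and 5.50, 5.49 and 5.51 in B6-ChrYSJL, a difference of 0.02 with a 95% interval of −0.13 to 0.17. Gcnt4, a further core 2 enzyme, differed by 0.03 (interval −0.14 to 0.19). Gcnt3, the core 2 and core 4 enzyme of mucin-secreting epithelia, was at 0.27 (standard error 0.11, adjusted p = 0.448 in limma), with 5.32, 5.48 and 5.56 in B6 and 5.82, 5.50 and 5.85 in B6-ChrYSJL, so that 1 pool of B6-ChrYSJL lay within the B6 range. These 3 were below background. Gcnt7, the 1 family member above it, was at 7.07, 7.19 and 6.70 in B6 and 7.07, 7.08 and 7.11 in B6-ChrYSJL.

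The steps before core 2 branching differed little. C1galt1, the galactosyltransferase that makes core 1 and thereby the substrate of Gcnt1, had log2 values of 8.76, 8.81 and 8.76 in B6 and 8.89, 9.04 and 8.83 in B6-ChrYSJL. The groups did not overlap, but the difference of 0.14 (interval −0.03 to 0.31, adjusted p = 0.533 in limma) did not pass. Its chaperone C1galt1c1, known as Cosmc, was at 8.09, 8.09 and 8.01 in B6 and 7.97, 8.32 and 8.22 in B6-ChrYSJL, with overlap. Among the 17 polypeptide GalNAc transferases, which start O-glycans, the differences ran from −0.18 (Galnt13, not above background) to 0.11 (Galnt16, not above background), and the interval of each lay within 0.5 of 0. The 10 of them above background were Galnt1, Galnt2, Galnt4, Galnt6, Galnt7, Galnt9, Galnt10, Galnt11, Galnt12 and Galnt15. Galnt6 was at 9.90, 9.89 and 9.86 in B6 and 9.90, 9.91 and 9.73 in B6-ChrYSJL. No member of this family passed, and Galnt13 was the 1 at an unadjusted p under 0.05.

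The enzymes that extend and cap the core 2 branch into a selectin ligand lay close together in the strains. B4galt1, which adds galactose to GlcNAc, was at 9.80, 9.78 and 9.79 in B6 and 9.77, 9.82 and 9.77 in B6-ChrYSJL, with a difference of −0.00 and an interval of −0.14 to 0.14. St3gal4 and St3gal6 add the α2,3-linked sialic acid of sialyl Lewis x. St3gal4 was at 7.21, 7.22 and 7.23 in B6 and 7.22, 7.22 and 7.19 in B6-ChrYSJL, and St3gal6 differed by −0.09 (interval −0.25 to 0.07). Fut7, the fucosyltransferase that completes selectin ligands on leukocytes, was just above background at 6.14, 6.27 and 6.07 in B6 and 6.22, 6.22 and 6.11 in B6-ChrYSJL, a difference of 0.02 with an interval of −0.15 to 0.20. Thus the groups overlapped for B4galt1, St3gal4 and Fut7, and a difference of the size of that of Gcnt1 lay outside the interval of each. Fut4, the other fucosyltransferase of leukocyte selectin ligands, was not above background and varied more, with 5.67, 5.27 and 5.59 in B6 and 5.65, 5.50 and 6.26 in B6-ChrYSJL. Its interval of −0.14 to 0.73 leaves a difference of that size in the upward direction within it.

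St3gal1 competes with Gcnt1 for core 1, since its sialic acid ends the chain there. It was at 10.15, 10.21 and 10.22 in B6 and 10.10, 10.21 and 10.15 in B6-ChrYSJL, a difference of −0.04 (interval −0.19 to 0.11). A further St3gal1 cluster differed by 0.03 (standard error 0.10), opposite in sign and also close to 0. B3gnt2, which builds poly-N-acetyllactosamine chains, was at 8.99, 8.98 and 8.98 in B6 and 8.88, 9.03 and 9.20 in B6-ChrYSJL, and B3gnt3, which extends core 1, spread from 6.85 to 7.60 in B6 alone. St6galnac1 and St6galnac2, which put sialic acid on the first GalNAc, differed by 0.17 and −0.08 and overlapped between the groups. Of the 13 genes along the way to selectin ligands, 1, Gcnt1, passed an FDR of 0.1, and the mean log2 value of the 13 was 7.58 to 7.65 in the B6 pools and 7.57 to 7.66 in the B6-ChrYSJL pools.

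**Figure D2:**
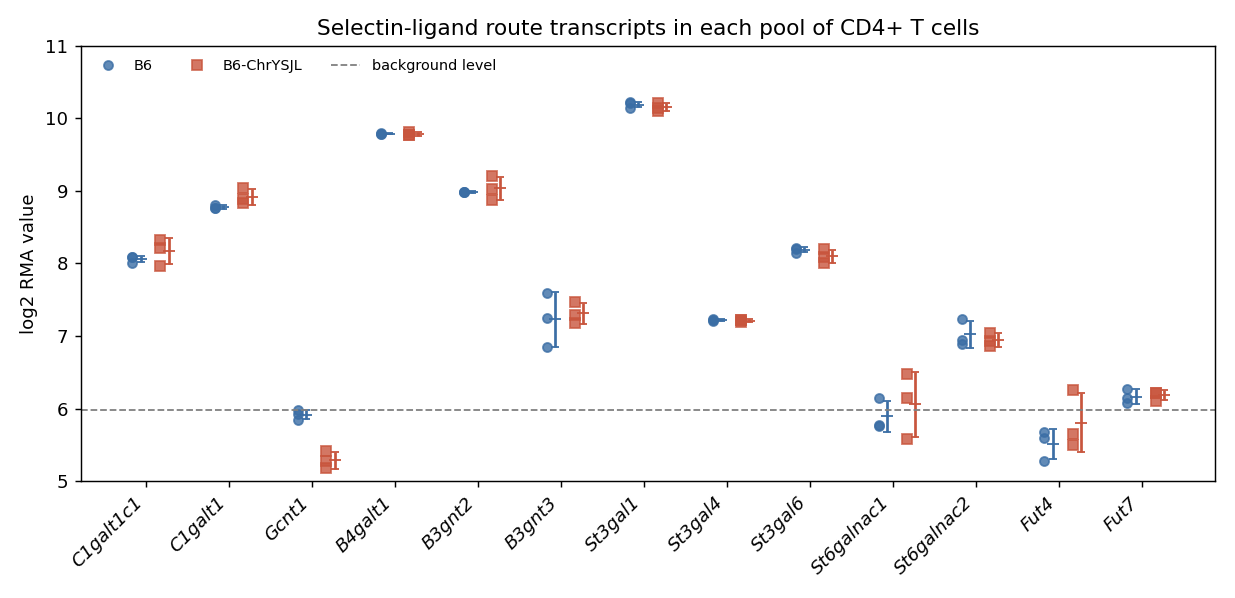
Log2 value (vertical) of 13 genes along the way to selectin ligands in each pool of B6 (circles) and B6-ChrYSJL (squares), with the mean and SD of each group (n = 3 pools) beside the points and the background level of 5.98 as a dashed line. Gcnt1 is separated by 0.44, with its points around or under the dashed line, while B4galt1, St3gal4 and Fut7 overlap.

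Genes of N-glycan synthesis were mostly above background and did not pass the test in either direction. Mgat1, which opens the way to hybrid and complex N-glycans, was the 1 gene of the 88 above background at an unadjusted p under 0.05. Its log2 values were 7.68, 7.48 and 7.84 in B6 and 7.99, 7.81 and 7.93 in B6-ChrYSJL, so that the groups overlapped by 1 pool, and the difference of 0.24 (standard error 0.10, interval 0.01 to 0.47) had an adjusted p of 0.458 in limma. Mgat2, the next enzyme, was at 8.38, 8.27 and 8.10 in B6 and 8.28, 8.39 and 8.12 in B6-ChrYSJL. Mgat5, whose β1,6 branch carries the chains that galectins bind, differed by −0.06 (interval −0.24 to 0.12), and Mgat3, which adds the bisecting GlcNAc, by 0.04 (interval −0.15 to 0.23). Among the 11 Mgat genes the differences ran from −0.11 (Mgat4d) to 0.24 (Mgat1), and every interval lay within 0.5 of 0.

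Of the 6 mannosidases 5 had a lower mean in B6-ChrYSJL and Man1a a higher one, with a median of −0.09. None was at an unadjusted p under 0.05. Man1b1, the mannosidase that trims early N-glycans, was at 7.62, 7.45 and 7.63 in B6 and 7.41, 7.47 and 7.23 in B6-ChrYSJL, a difference of −0.19 (interval −0.39 to 0.01) with overlap. Man2a1, which acts after Mgat1, was at 9.69, 9.74 and 9.65 in B6 and 9.63, 9.64 and 9.59 in B6-ChrYSJL. Its groups did not overlap, but the difference was −0.08 (interval −0.22 to 0.07) and the adjusted p 0.701 in limma. Fut8, which adds the core fucose to N-glycans, differed by 0.12 (interval −0.05 to 0.29). Fut11 was at 7.66, 7.54 and 7.50 in B6 and 7.60, 7.47 and 7.61 in B6-ChrYSJL, with overlap.

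Further sialyltransferases above background lay close together as well. St6gal1, which adds the α2,6-linked sialic acid that CD22 on B cells binds, was at 10.19, 10.05 and 10.22 in B6 and 10.06, 10.30 and 10.13 in B6-ChrYSJL, with a difference of 0.01 (interval −0.19 to 0.20). St8sia4, which makes polysialic acid, was at 9.92, 10.08 and 10.03 in B6 and 9.99, 9.94 and 9.90 in B6-ChrYSJL. St8sia1, the synthase of the ganglioside GD3, differed by −0.02 (interval −0.17 to 0.13), and St6galnac4, of the class that puts sialic acid on GalNAc, by −0.07 (interval −0.23 to 0.09). All of these overlapped between the groups.

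Of the 20 sialyltransferases, St3gal5 and St8sia3 did not overlap between the groups, and St3gal5 was the 1 at an unadjusted p under 0.05. St8sia3, not above background, was at 5.37, 5.42 and 5.35 in B6 and 5.46, 5.53 and 5.53 in B6-ChrYSJL (difference 0.13, adjusted p = 0.51 in limma). St3gal5 makes GM3, the first sialylated glycolipid from which the other gangliosides are built. Its log2 values of 6.03, 6.07 and 6.19 in B6 and 5.90, 5.56 and 5.96 in B6-ChrYSJL did not overlap, the B6 pools lying just above the background level and the B6-ChrYSJL pools below it. The difference was −0.29 (standard error 0.11, interval −0.54 to −0.04), with an unadjusted p under 0.05 and an adjusted p of 0.421 in limma, so it did not pass. B3galt4, which acts later on gangliosides and makes GM1, was above background at 8.13, 8.38 and 8.20 in B6 and 7.95, 8.22 and 8.21 in B6-ChrYSJL, with overlap.

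The remaining genes at an unadjusted p under 0.05, B3galt5, Fut2 and Galnt13, were not above background. B3galt5, which makes type 1 chains in epithelia, was at 4.79, 4.37 and 4.55 in B6 and 5.24, 4.73 and 5.02 in B6-ChrYSJL, a difference of 0.43 (standard error 0.14, adjusted p = 0.393 in limma) with overlap of 1 pool. Fut2, the secretor fucosyltransferase of epithelia, was at 5.81, 5.53 and 5.62 in B6 and 6.17, 5.90 and 5.84 in B6-ChrYSJL, without overlap (difference 0.31, adjusted p = 0.399 in limma). Together with Gcnt1, Gcnt3 and St3gal5, genes that were not above background made up 6 of the 7 at that p (85.7%), against 35.4% of all tested transcripts at that p.

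**Figure D3:**
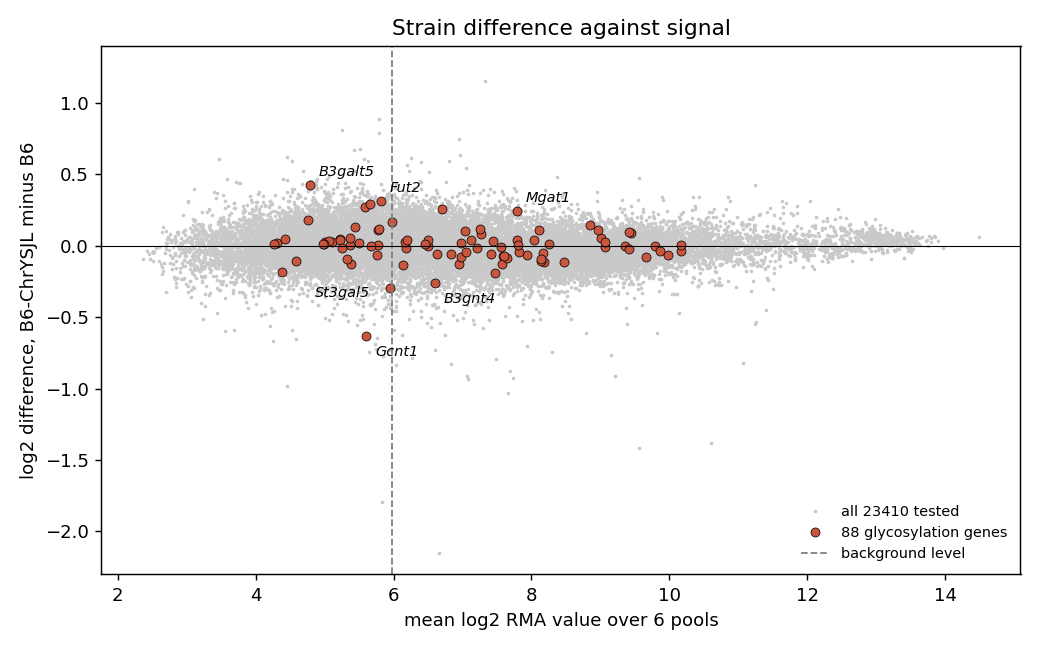
Log2 difference, B6-ChrYSJL minus B6 (vertical), against the mean log2 value over the 6 pools (horizontal) for all 23410 tested transcripts (grey) and the 88 glycosylation genes (red). The dashed line is the background level of 5.98. Gcnt1 lies to the left of it at −0.63, and the genes to the right of it stay between −0.26 and 0.26.

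The genes that varied most between pools of the same strain were others than Gcnt1. B3gnt6, the core 3 synthase of the gut, had the largest SD within strains at 0.38 and St6galnac1 followed at 0.35, then Fut4 and B3gnt4 at 0.32 each, while Gcnt1 had 0.095 (pooled over the groups, 3 pools each). The median over the 88 genes was 0.11 and that over all tested transcripts 0.10. B4galt1 and St3gal4 were among the steadiest, with an SD of 0.01 in B6 and of 0.03 and 0.02 in B6-ChrYSJL. St6galnac1 ranged from 5.58 to 6.47 over the B6-ChrYSJL pools, which spans the background level.

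Genes that supply and house these enzymes were also examined. Of 32 genes of nucleotide sugar supply and Golgi transport, all above background, 1 passed an FDR of 0.05 and was lower in B6-ChrYSJL. It was Entpd4, a Golgi nucleotidase of the kind that clears the UDP left by sugar transfer, with means of 8.67 in B6 and 7.93 in B6-ChrYSJL (difference −0.75, standard error 0.07, adjusted p = 0.0218 in limma), where 0.0171% of all tested transcripts passed. Entpd4 was no longer past an FDR of 0.1 with an unmoderated linear model (adjusted p = 0.226) or over all deposited clusters (adjusted p = 0.134), or when any 1 array other than B6 replicate 3 was left out (adjusted p = 0.103 to 0.166). At an unadjusted p under 0.05 there were 4 lower and 1 higher of the 32 (15.6%), against 11.1% of the tested transcripts above background, 7.15% lower and 3.98% higher. They were, beside Entpd4, Slc35b4, a Golgi transporter of nucleotide sugars (−0.26, adjusted p = 0.319), Gmds, the first enzyme of GDP-fucose synthesis (−0.30, adjusted p = 0.437), Entpd6 (−0.17) and Fcsk, the fucose kinase (0.16), adjusted p-values from limma.

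Of 22 genes of Golgi organisation none passed an FDR of 0.1 in limma, and 4 (18.2%) were lower and none higher at an unadjusted p under 0.05, against 7.15% lower and 3.98% higher of the tested transcripts above background. These were the golgins and tethers Golga4 (−0.29), Golga5 (−0.23), Golgb1 (−0.33) and Gcc2 (−0.27). The medians of these lists were −0.07 and −0.05. Of 15 genes for selectin ligand carriers, sulfation and lectins, Cd44 (−0.26), which is also on the activated or memory list, and Chst1 (−0.39) were lower at that p (13.3%, against 5.92% of all tested) and none passed an FDR of 0.1. The B6-ChrYSJL mean of Chst1, 5.84, lay under the background level. Of 12 glycosyltransferases outside the families above, such as Ogt, Lfng and B4galnt1, B3galnt1 was at 0.31 below background and none passed.

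**Figure D4:**
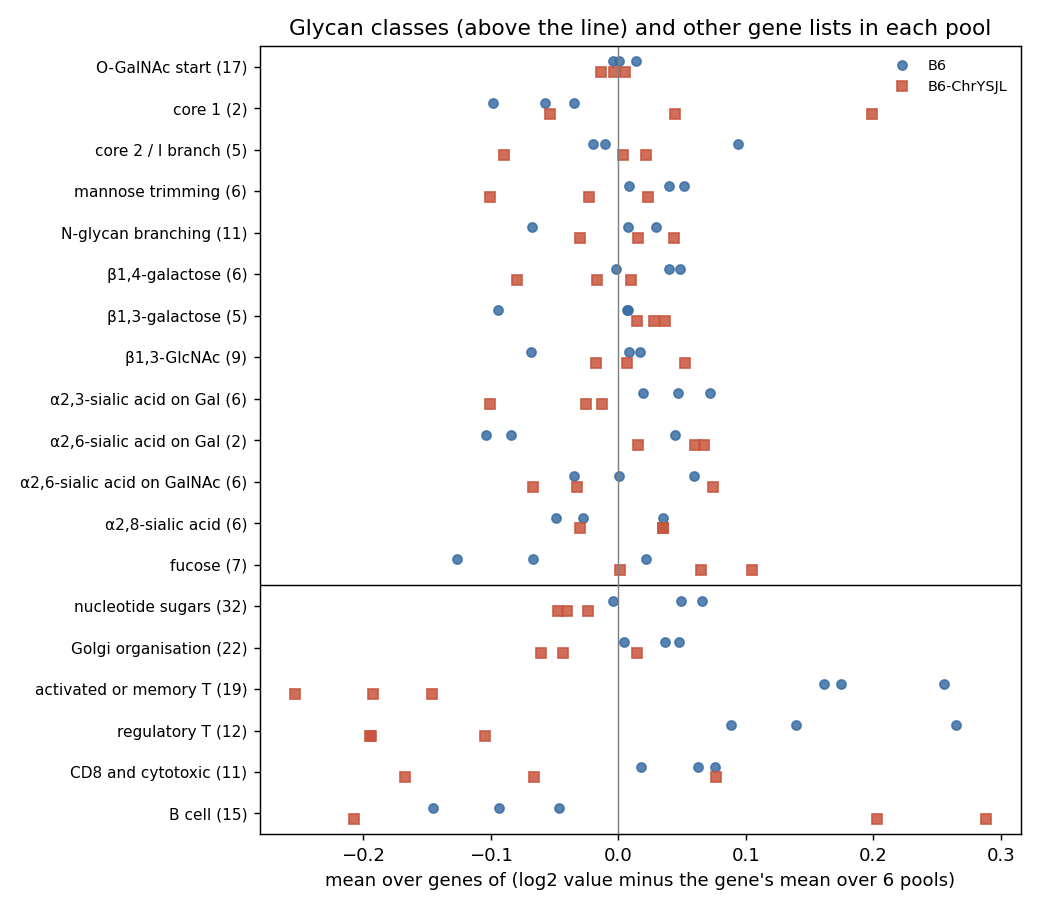
Log2 values centred on each gene's own mean across the 6 pools and then averaged over the genes of a class (horizontal), for B6 (circles) and B6-ChrYSJL (squares), 1 symbol per pool, with the number of genes in brackets. The pools of the strains are apart in 2 of the 13 glycan classes above the line. Of all tested transcripts taken singly, 17.1% did not overlap. The classes are those of β1,3-linked galactose and α2,3-linked sialic acid. In the first, 3 of 5 genes are lower and B3galt5 (0.43, not above background) is the 1 over 0.25. In the second, 5 of 6 are lower and St3gal5 (−0.29, not above background) is the 1 over 0.25 in size. Below the line the pools are apart in the nucleotide sugar, activated or memory and regulatory T cell lists.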

How the data were processed

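The authors extracted RNA from sorted CD4+ T cells, hybridized it to Affymetrix Mouse Gene ST arrays and deposited log2 values of 35556 transcript clusters. The submitters' processing notes name GCOS, RMA and Partek and the build mm9, and RMA includes background correction and quantile normalization. No scanner files were used here, and the number of arrays limits the precision. Array medians were 6.41 to 6.44 and arrays correlated at 0.991 to 0.993.

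The 23410 clusters with a gene annotation (21789 with 1 symbol, 1621 with several) were compared, B6-ChrYSJL minus B6, with lmFit and eBayes of limma 3.58.1 in R 4.3.3, and p-values were adjusted across them by Benjamini and Hochberg's method. Figures were drawn with matplotlib 3.10.9. The procedure was tested on simulated data. Nothing in the sources used here says more of the pools, so p-values measure the spread between pools. The clusters were not placed on a genome, and promoter windows came from RefSeq.

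The genes, lists and tests were chosen with earlier results of these data known. Genes were named by a rule: Gcnt1, any gene at an unadjusted p under 0.05 with a group above background, the brightest of each class, the 13 of the selectin ligand route and genes with clusters of opposite sign. Other genes named, such as B3galt5 and Fut2, were chosen after their values were seen. Alternatives covered the variance model, array weights, background filter, clusters tested, cluster per gene, symbols, normalization, replicate block and each array left out.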

Additional observations from a re-analysis of the deposited data

How the results depend on the processing

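Gcnt1 kept its direction under every alternative that tested it. The variance models, the clusters tested and the replicate block leave the difference unchanged by construction. Nor could an array left out turn its sign, since Gcnt1 does not overlap between the groups. It was past an FDR of 0.1 in limma with an intensity trend (adjusted p = 0.0198), robust variances (0.0181), array weights (0.0792), median centring (0.0482) and repeated quantile normalization (0.0758), but not with an unmoderated model, all deposited clusters or the replicate block (difference −0.63 in each, adjusted p = 0.266, 0.323 and 0.209), or with an array left out (−0.70 to −0.58, adjusted p = 0.11 to 0.301). It is not above background, so the fit of the transcripts above background gave no value for it. The genes of the 88 past an FDR of 0.1 numbered 1, and 0 with the unmoderated model, above background, over all deposited clusters, with the replicate block and with any array left out (0 to 0). Those at an unadjusted p under 0.05 numbered 7, against 3 with the unmoderated model, 2 above background and 4 to 8 with an array left out. All tested transcripts past an FDR of 0.1 numbered 17, against 119 with the trend, 116 with robust variances, 0 unmoderated, 38 above background, 0 over all deposited clusters, 28 with median centring, 6 with the replicate block and 0 to 13 with an array left out. The median difference of the 88 was 0.0083, −0.0085 above background, −0.0022 with median centring and −0.0134 to 0.0029 with an array left out. Of 23 other named genes none passed under any of 365 values, and 12 turned sign somewhere: with array weights Fut11 (0.0075), Mgat2 (−0.0049) and St6gal1 (−0.0047), with median centring St6gal1 (−0.0015), with repeated quantile normalization B4galt1 (0.021), Fut11 (0.0309) and St3gal4 (0.0092), and with an array left out B3gnt2 (−0.028 to 0.1322), B3gnt3 (−0.1112 to 0.2672), B4galt1 (−0.0179 to 0.0095), Fut11 (−0.0397 to 0.0396), Fut7 (−0.0208 to 0.0795), Galnt6 (−0.0644 to 0.0231), Gcnt7 (−0.0414 to 0.2052), Mgat2 (−0.0575 to 0.0873), St3gal4 (−0.0186 to 2e-04), St6gal1 (−0.0605 to 0.0618), St6galnac1 (−0.0348 to 0.4083) and St6galnac2 (−0.1469 to 0.0292). Pools of the same replicate number did not deviate together (correlations 0.02, −0.02 and −0.01), so the numbers were not read as pairs. Signal at or under background limits 32 of the 88 genes, Gcnt1 among them. The cause of these changes was not tested.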
